A study of Mus musculus with 7 samples.

Results

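The 9 genes described here carry iron into cells, hold it there and let it out: Tfrc, Trf, Slc11a2, Steap3, Fth1, Ftl1, Slc40a1, Cp and Hfe. They were taken by name, through the Ensembl identifiers of the count table and the GENCODE mouse annotation, as 9 of the 56065 genes measured in the extrahepatic bile duct (EHBD) of the mouse. No cutoff on expression was used in the choice, but earlier results of these data were known when it was made. All 9 passed the filter of at least 10 counts in total, as did 25209 genes of the table, and the lowest count of a member in any library was 313 (Steap3, BDL replicate 2).

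Iron travels in plasma bound to transferrin (Trf), which docks on the transferrin receptor (Tfrc) and is taken into endosomes, where a STEAP reductase turns ferric into ferrous iron and the transporter DMT1 (Slc11a2) moves it into the cytosol. Iron that is not used is stored in a shell of ferritin heavy (Fth1) and light (Ftl1) chains, or leaves through ferroportin (Slc40a1) with the help of a copper ferroxidase such as ceruloplasmin (Cp), and HFE takes part in setting the hormone hepcidin, which removes ferroportin from the cell surface. Hepatocytes make most circulating transferrin and ceruloplasmin, so both transcripts are also markers of liver tissue.

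The samples were whole EHBDs of adult wild-type C57BL/6 mice (C57BL/6J in the methods of the study) collected 48 hours after bile duct ligation (BDL), in which the duct was tied off close to the duodenum, or after sham surgery, in which the abdomen was opened without a tie. There were 4 BDL libraries, 2 from females and 2 from males, and 3 sham libraries, 1 from a female and 2 from males. The labels do not tie each library to an animal, although the study counts its replicates as mice, and each p-value rests on how far these libraries vary. Replicate numbers follow the order of deposit and only name a library.

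The libraries held 48882420 to 61291821 counts each. Levels are given in CPM, counts per 1000000 counts of a library whose size was scaled by the trimmed mean of M values (TMM). Biliary epithelium was present in every library: none of 9 cholangiocyte markers was at 0, and their summed level was 8491 to 9505 CPM in BDL against 3853 to 4931 CPM in sham libraries. Tissue from around the duct was present in unequal amounts. Pancreatic acinar transcripts made up 0.00238% to 8.54% of counts in BDL and 6.56% to 28.9% in sham libraries, and the sham library with the most (replicate 3) had a scaling factor of 0.6082 against 1.025 to 1.172 in the others. Fat and nerve transcripts separated the groups: 8 adipocyte markers, of which 5 fell and none rose, summed to 58.2 to 418 CPM in BDL against 1055 to 4940 CPM in sham libraries, and 7 Schwann cell markers, of which 2 fell and none rose, to 124 to 216 CPM in BDL against 235 to 275 CPM in sham libraries. Their part in the differences between BDL and sham EHBDs given below was not tested. Liver transcripts set BDL replicates 1 and 4 apart before any iron gene is considered. Alb, serum albumin, was at 1522 and 4451 CPM in BDL replicates 1 and 4, at 0.24 and 0.099 CPM in BDL replicates 2 and 3, and at 5.99, 39.8 and 143 CPM in sham replicates 1 to 3. Apoa1, the main protein of high density lipoprotein, was at 1084 and 3068 CPM in BDL replicates 1 and 4, at 0.44 and 0.25 CPM in BDL replicates 2 and 3, and at 1.19, 14.9 and 50.3 CPM in sham replicates 1 to 3. Each of the 9 genes is therefore also given without BDL replicates 1 and 4.

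Several of these transcripts carry the iron responsive element (IRE), a short hairpin to which the iron regulatory proteins bind when iron is scarce. In a 5′ untranslated region (UTR) the bound protein blocks translation, and in a 3′ UTR it protects the mRNA from decay. The hairpins are shown because they set apart members whose mRNA amount is known to follow iron (Tfrc) from members known to be set largely at translation (Fth1, Ftl1 and the main form of Slc40a1), which an RNA count does not measure. A search of the GENCODE transcripts on GRCm39 for the loop CAGTGN above 5 paired upper-stem bases, an unpaired C on the 5′ side and at least 4 of 5 paired lower-stem bases found the following sites, each of 27 bases with the loop in capitals.
Fth1, 5′ UTR, chr19:9960097-9960123, plus strand: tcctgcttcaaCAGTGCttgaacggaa
Ftl1, 5′ UTR, chr7:45109204-45109230, minus strand: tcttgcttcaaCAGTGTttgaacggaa
Slc40a1, 5′ UTR, chr1:45964626-45964652, minus strand: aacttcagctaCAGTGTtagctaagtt
Tfrc, 3′ UTR, chr16:32450038-32450064, plus strand: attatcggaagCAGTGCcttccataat
Tfrc, 3′ UTR, chr16:32450417-32450443, plus strand: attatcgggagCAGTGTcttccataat
Tfrc, 3′ UTR, chr16:32450482-32450508, plus strand: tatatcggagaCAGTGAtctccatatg
Tfrc, 3′ UTR, chr16:32450529-32450555, plus strand: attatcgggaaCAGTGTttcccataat

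The site was present in 17 of 18 coding transcripts of Fth1, 6 of 7 of Ftl1 and 10 of 12 of Tfrc, but only in 5 of 9 of Slc40a1. The deposited values sum all transcripts of a gene, so forms with and without the hairpin were not separated. No hairpin of this form was found in Trf, Slc11a2, Steap3, Cp or Hfe, which says only that these letters and pairs were not met there. An IRE with an unpaired base in its upper stem would have been missed, so these genes cannot be said to lack one. Of 16935 protein-coding genes tested, 34 (0.201%) held such a site.

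Across the 9 genes, 2 were higher and 1 was lower in BDL than in sham EHBDs at an adjusted p under 0.05, and 6 did not pass (edgeR quasi-likelihood F test with sex as a term, Benjamini-Hochberg adjustment over all 25209 tested genes, used for every adjusted p here). Slc40a1 and Tfrc rose and Steap3 fell. Of all genes tested, 11.8% were higher and 11.0% lower. The median log2 fold change of the 9 genes was 0.62, beside −0.01 over all tested genes. This shift depended on the libraries used. Without BDL replicates 1 and 4 the median was 0.01, beside −0.05 over all tested genes. Without BDL replicates 2 and 3 it was 0.74, beside −0.05. In 3 of the 9 every BDL library was above every sham library, as it was in 18.7% of all tested genes, and in 1 every BDL library was below, as in 18.0%. The samples are whole tissue, so more RNA per cell and more cells of a kind cannot be told apart.

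**Figure D1:**
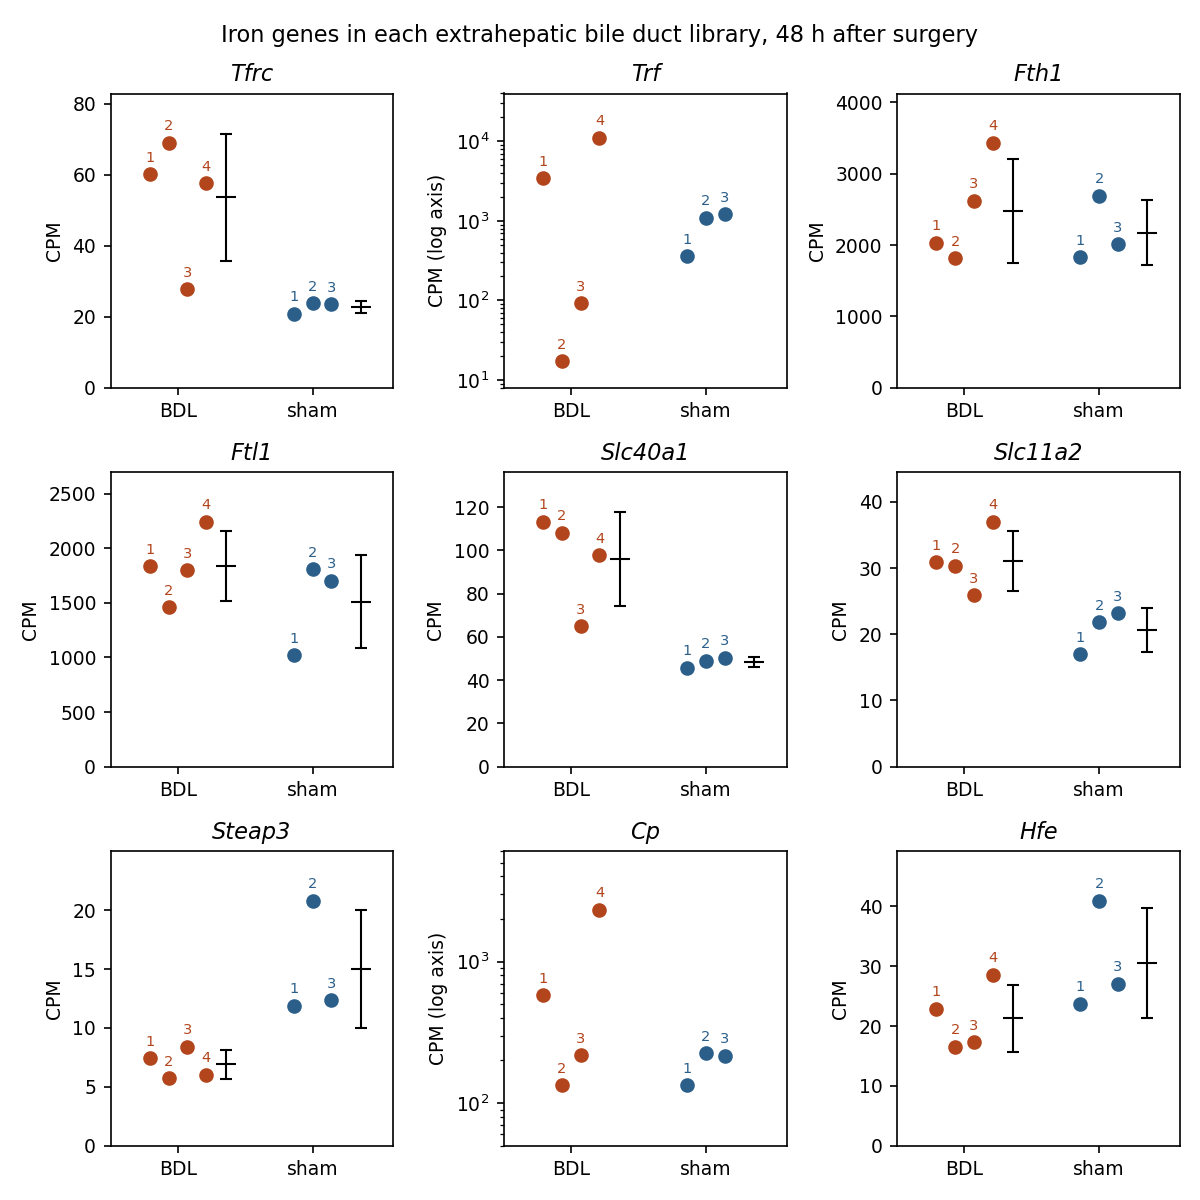
Level of each of the 9 iron genes in CPM in every EHBD library 48 h after surgery, with BDL replicates 1 to 4 on the left and sham replicates 1 to 3 on the right of each panel, and the mean ± SD in black. Trf and Cp are on log axes without a mean, and only Tfrc, Slc40a1 and Slc11a2 have all 4 BDL libraries above, and only Steap3 all 4 below, the 3 sham libraries.

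Among the genes of iron entry, Tfrc rose. Tfrc (chr16:32427556-32451612, plus strand) was at 60.2, 69.1, 27.8 and 57.7 CPM in BDL replicates 1 to 4, against 20.8, 23.8 and 23.6 CPM in sham replicates 1 to 3. The 3 sham libraries lay close together, 3 BDL libraries were well above them, and BDL replicate 3 was only just above. The mean was 53.7 ± 18.0 CPM (SD, n = 4) in BDL and 22.7 ± 1.66 CPM (SD, n = 3) in sham EHBDs, or 1.28 on the log2 scale (SE 0.26, adjusted p = 0.0135). The difference was of like size in the libraries with little liver RNA: without BDL replicates 1 and 4 it was 1.07 (SE 0.27, adjusted p = 0.0344), and BDL replicate 2, with Alb near 0, had the highest Tfrc level of all. The call ended when sham replicate 2 (1.21, adjusted p = 0.0555) or sham replicate 3 (1.23, adjusted p = 0.0602) was left out. Red cell precursors are rich in Tfrc. Of 8 erythroid markers, 7 fell and none rose, and their summed level was 110 to 288 CPM in BDL against 344 to 1505 CPM in sham libraries. The number of these markers at 0 was 1 in BDL replicate 3, 2 in BDL replicate 4 and 1 in sham replicate 3. The part of red cell precursors in the Tfrc rise was not tested.

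Slc11a2, the endosomal iron transporter DMT1, was above sham in every BDL library without passing the test. Slc11a2 (chr15:100285776-100322953, minus strand) was at 30.9, 30.3, 25.9 and 37.0 CPM in BDL replicates 1 to 4, against 17.0, 21.9 and 23.2 CPM in sham replicates 1 to 3. The groups did not overlap, and the gap between BDL replicate 3 and sham replicate 3 was small. Its log2 fold change of 0.62 had a standard error of 0.19 and an adjusted p of 0.0517. It passed with several alternatives, DESeq2 among them (0.59, adjusted p = 0.0239), and was 0.50 (SE 0.20, adjusted p = 0.1405) without BDL replicates 1 and 4.

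Steap3, the ferric reductase of the transferrin endosome in red cell precursors, fell. Steap3 (chr1:120118487-120200435, minus strand) was at 7.44, 5.74, 8.41 and 6.04 CPM in BDL replicates 1 to 4, against 11.9, 20.8 and 12.3 CPM in sham replicates 1 to 3. Every BDL library was below every sham library, and sham replicate 2 was the highest of all. This came to −1.09 on the log2 scale (SE 0.28, adjusted p = 0.0318). The size stayed at −1.08 (SE 0.36, adjusted p = 0.0863) without BDL replicates 1 and 4, but the call did not, and it also ended without BDL replicate 1 (−1.13, 0.0916), BDL replicate 2 (−0.94, 0.104), sham replicate 1 (−1.33, 0.0553), sham replicate 2 (−0.84, 0.0743) or sham replicate 3 (−1.22, 0.0506), given as log2 fold change and adjusted p. Sham replicate 2 also had the highest summed erythroid (1505 CPM) and macrophage (972 CPM) markers, and the part of either in Steap3 was not tested.

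Trf, transferrin itself, was the most variable of the 9. Trf (chr9:103081200-103107814, minus strand) was at 3460, 17.3, 92.6 and 11095 CPM in BDL replicates 1 to 4, against 361.5, 1089 and 1212 CPM in sham replicates 1 to 3. The 2 BDL libraries with high Alb were above, and the 2 with Alb near 0 below, every sham library. The log2 fold change of 1.68 had a standard error of 2.05 (adjusted p = 0.59), and no direction can be given. Without BDL replicates 1 and 4 it was −4.17 (SE 1.06, adjusted p = 0.0358), and without BDL replicates 2 and 3 it was 3.11 (SE 0.91, adjusted p = 0.066). Those pairs were set by their Alb level and hepatocytes make Trf, so neither value is independent of the choice of libraries. With the summed hepatocyte markers as a covariate the log2 fold change was −1.12 (SE 0.41, adjusted p = 0.0784). The adipocyte markers summed to 341, 58.2, 234 and 418 CPM in BDL replicates 1 to 4. In sham replicates 1 to 3 they summed to 1055, 4940 and 4185 CPM. The part of liver or fat RNA in Trf was not tested.

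Trf was also set against Alb within each library. The ratio of Trf to Alb counts was 2.27 and 2.49 in BDL replicates 1 and 4, whose Alb levels differ widely, but 72.6 and 938 in BDL replicates 2 and 3, and 60.4, 27.4 and 8.48 in sham replicates 1 to 3. The ratio was alike in BDL replicates 1 and 4, the libraries with the highest Alb, and higher in every other library. BDL replicates 1 and 4 alone cannot set the ratio of Trf to Alb in liver RNA. The ratios in BDL replicates 2 and 3 rest on few Alb counts and are imprecise. Hpx, hemopexin, a plasma heme carrier made by the liver, had a ratio to Alb that varied far less than that of Trf: 1.07, 1.38, 2.17 and 1.21 in BDL replicates 1 to 4 and 0.817, 0.593 and 0.915 in sham replicates 1 to 3. Hp, a hemoglobin carrier, varied widely, as Trf did. Its ratio to Alb was 1.04, 17.2, 874 and 1.06 in BDL replicates 1 to 4 and 4.59, 6.92 and 1.55 in sham replicates 1 to 3. Whether Trf in the libraries with a higher ratio came from the duct or from another tissue was not tested.

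**Figure D2:**
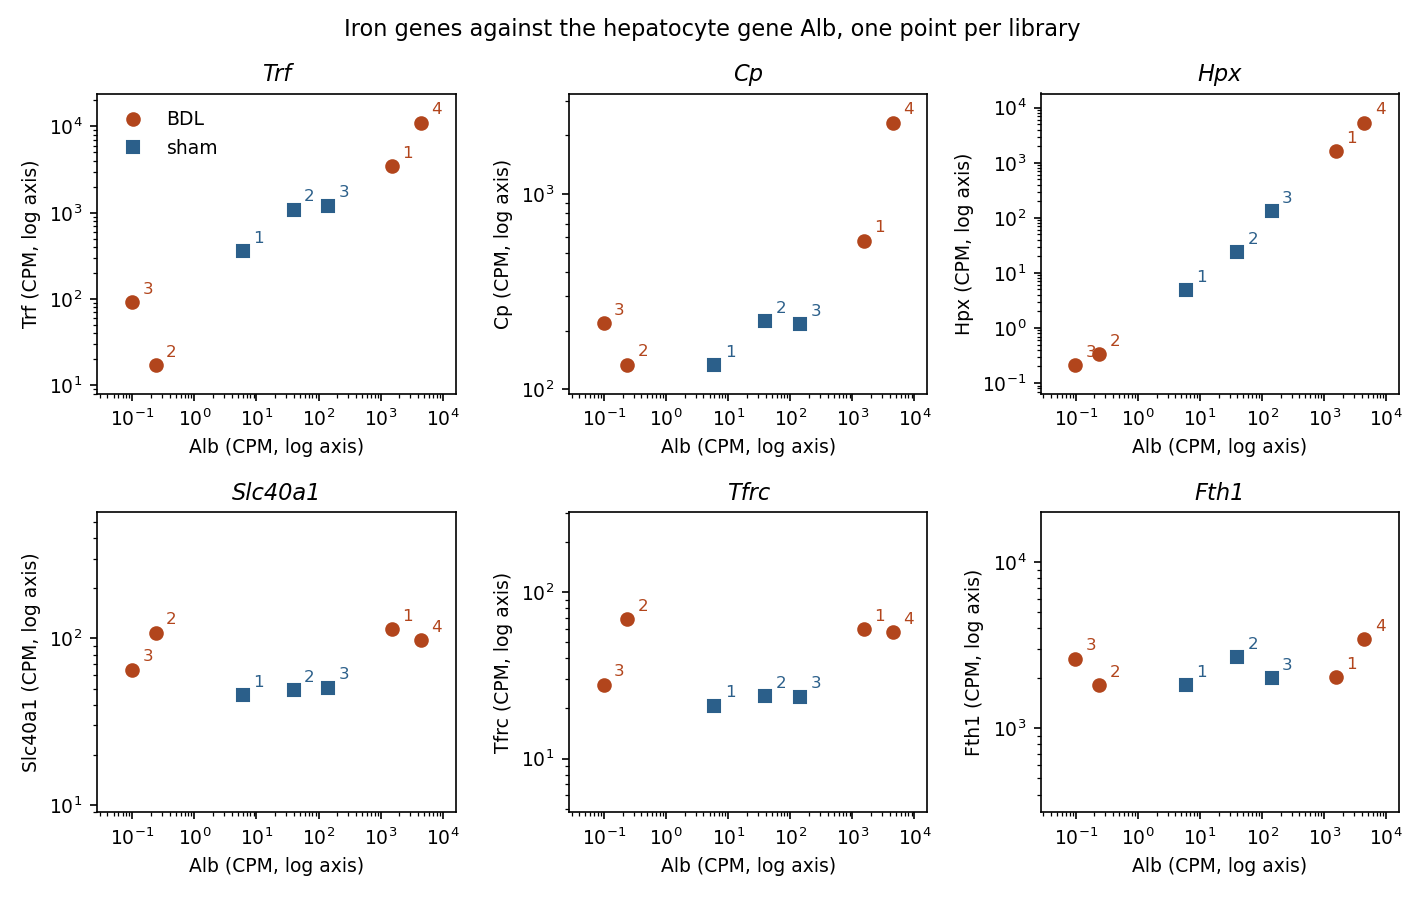
Levels of Trf, Cp, Hpx (top row), Slc40a1, Tfrc and Fth1 (bottom row) against Alb, all in CPM on log axes, with 1 point per library, circles for BDL and squares for sham, numbered by replicate. Hpx and Trf are higher in libraries with more Alb, apart from Trf in BDL replicates 2 and 3, Cp is high only in BDL replicates 1 and 4, and Slc40a1 and Tfrc are higher in BDL libraries at both ends of the Alb axis.

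The ferritin chains had the highest means of the 9 genes per length of transcript and did not pass the test. Per kilobase of the canonical transcript, Fth1 was at 2665 ± 781 in BDL and 2340.0 ± 489 in sham EHBDs, and Ftl1 at 1892 ± 331 in BDL and 1559 ± 440 in sham EHBDs (CPM per kb, mean ± SD, n = 4 and 3). On the same scale Slc40a1 was at 27.8 ± 6.28 and 14.0 ± 0.71, Tfrc at 11.0 ± 3.67 and 4.64 ± 0.34, Slc11a2 at 10.3 ± 1.51 and 6.83 ± 1.09, Hfe at 5.84 ± 1.54 and 8.38 ± 2.51, and Steap3 at 1.22 ± 0.22 and 2.65 ± 0.89 CPM per kb in BDL and sham EHBDs. Trf and Cp are left out of this order because their SD exceeded their mean in BDL EHBDs. Among neighbours in it, Fth1 and Ftl1, and Tfrc and Slc11a2, differed in BDL EHBDs by less than the larger SD of the pair.

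Fth1, the heavy chain with the ferroxidase centre (chr19:9957911-9962462, plus strand), was at 2031, 1815, 2620 and 3437 CPM in BDL replicates 1 to 4, against 1826, 2688 and 2008 CPM in sham replicates 1 to 3. The groups overlapped over most of their range. BDL over sham came to 0.10 on the log2 scale (SE 0.36, adjusted p = 0.865), and to −0.02 with upper quartile scaling, which moved the median of all genes by −0.122. Without BDL replicates 1 and 4 it was 0.01 (SE 0.42, adjusted p = 0.988).

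Ftl1, the light chain that helps to form the iron core (chr7:45107367-45109308, minus strand), was at 1834, 1460, 1797 and 2244 CPM in BDL replicates 1 to 4, against 1022, 1808 and 1702 CPM in sham replicates 1 to 3. Sham replicate 1 was the lowest of all libraries, and the other values mixed. For Ftl1 the log2 fold change was 0.32 (SE 0.34, adjusted p = 0.538), and it was −0.09 (adjusted p = 0.877) without sham replicate 1 and 0.20 (adjusted p = 0.778) without BDL replicates 1 and 4. With standard errors of this size neither chain can be said to have stayed the same.

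The count ratio of Fth1 to Ftl1 was 1.11, 1.24, 1.46 and 1.53 in BDL replicates 1 to 4 and 1.79, 1.49 and 1.18 in sham replicates 1 to 3. It averaged 1.34 ± 0.195 (SD, n = 4) in BDL and 1.48 ± 0.304 (SD, n = 3) in sham EHBDs, with overlapping groups. Both genes have processed copies that share reads with them: 15 such copies were in the table, Ftl1-ps1 took 2.88% to 3.94% of the reads of Ftl1 and itself together, and no other copy exceeded 32 counts in any library.

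Of the genes of iron exit, Slc40a1 rose. Slc40a1, which encodes ferroportin, the only known cellular iron exporter of mammals (chr1:45947211-45965683, minus strand), was at 113, 108, 65.0 and 97.7 CPM in BDL replicates 1 to 4, against 45.7, 49.0 and 50.5 CPM in sham replicates 1 to 3. All BDL libraries were above all sham libraries, with BDL replicate 3 the nearest to them, as for Tfrc and Slc11a2. The mean was 96.1 ± 21.7 CPM (SD, n = 4) in BDL and 48.4 ± 2.47 CPM (SD, n = 3) in sham EHBDs, or 1.03 on the log2 scale (SE 0.18, adjusted p = 0.0083).

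This was the member whose call held under all 18 alternatives run, with adjusted p-values of 2.49e-05 to 0.0397. Without BDL replicates 1 and 4 the log2 fold change was 0.85 (SE 0.21, adjusted p = 0.0297), and without BDL replicates 2 and 3 it was 1.15 (SE 0.19, adjusted p = 0.013), so the rise was present in the libraries with almost no liver RNA as well as in those with much of it. Macrophages that recycle red cells express Slc40a1 strongly. Of 15 macrophage markers, none rose and 2 fell, the receptors Csf1r and Adgre1, and the summed level was 315 to 596 CPM in BDL against 472 to 972 CPM in sham libraries, with the Kupffer cell lectin Clec4f at 0 in BDL replicates 2 and 3. The part of macrophages in the Slc40a1 rise was not tested. The summed cholangiocyte level given above did not overlap between the groups and was higher in BDL, like Slc40a1 and Tfrc. Of the 9 cholangiocyte markers 3 rose (Krt19, Krt7 and Cldn4), 1 fell (Sox9) and 5 did not pass, and their part in either gene was not tested.

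Cp, ceruloplasmin, the ferroxidase that loads exported iron onto transferrin (chr3:20011090-20063930, plus strand), was at 578, 134, 218 and 2327 CPM in BDL replicates 1 to 4, against 134, 224 and 215 CPM in sham replicates 1 to 3. BDL replicates 1 and 4 were far above, while BDL replicates 2 and 3 had the levels of sham libraries. For Cp it was 1.58 on the log2 scale (SE 1.03, adjusted p = 0.304) over all libraries and −0.09 (SE 0.35, adjusted p = 0.891) without BDL replicates 1 and 4. Against Alb, Cp was at 0.38 and 0.523 counts per Alb count in BDL replicates 1 and 4, at 562 and 2210 in BDL replicates 2 and 3, where Alb counts were few, and at 22.3, 5.64 and 1.51 in sham replicates 1 to 3. Cp thus had a level of 134 CPM or more in every library, Alb near 0 or not. With the summed hepatocyte markers as a covariate its log2 fold change was 1.0 (SE 0.30, adjusted p = 0.0401), and without BDL replicates 2 and 3 it was 2.63 (SE 0.68, adjusted p = 0.0464). As with Trf, the pairs were set by Alb level and hepatocytes make Cp. Neither value with a pair left out is independent of that choice, and the part of liver RNA in Cp was not tested.

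Hfe, the class I-like protein that binds the transferrin receptor (chr13:23886017-23894914, minus strand), was at 22.9, 16.5, 17.3 and 28.6 CPM in BDL replicates 1 to 4, against 23.7, 41.0 and 27.0 CPM in sham replicates 1 to 3. The groups overlapped through BDL replicate 4, and sham replicate 2 stood above the rest. For Hfe the log2 fold change was −0.50 (SE 0.29, adjusted p = 0.244), and −0.79 (SE 0.27, adjusted p = 0.0854) without BDL replicates 1 and 4.

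Without BDL replicates 1 and 4, 2 of the 9 genes were higher (8.85% of all tested genes) and 1, Trf, was lower (8.62%). Without BDL replicates 2 and 3, which carried most acinar RNA of the BDL group, 3 were higher (8.53%), Tfrc, Slc40a1 and Cp, and none lower (7.05%). Tfrc and Slc40a1 were called with either pair of BDL libraries left out, each time against the same 3 sham libraries. The summed acinar markers were 1505, 68275, 82459 and 22.2 CPM in BDL replicates 1 to 4 and 56579 to 475723 CPM in sham libraries. Over the same BDL libraries Tfrc was at 60.2, 69.1, 27.8 and 57.7 CPM, and Slc40a1 at 113, 108, 65.0 and 97.7 CPM.

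**Figure D3:**
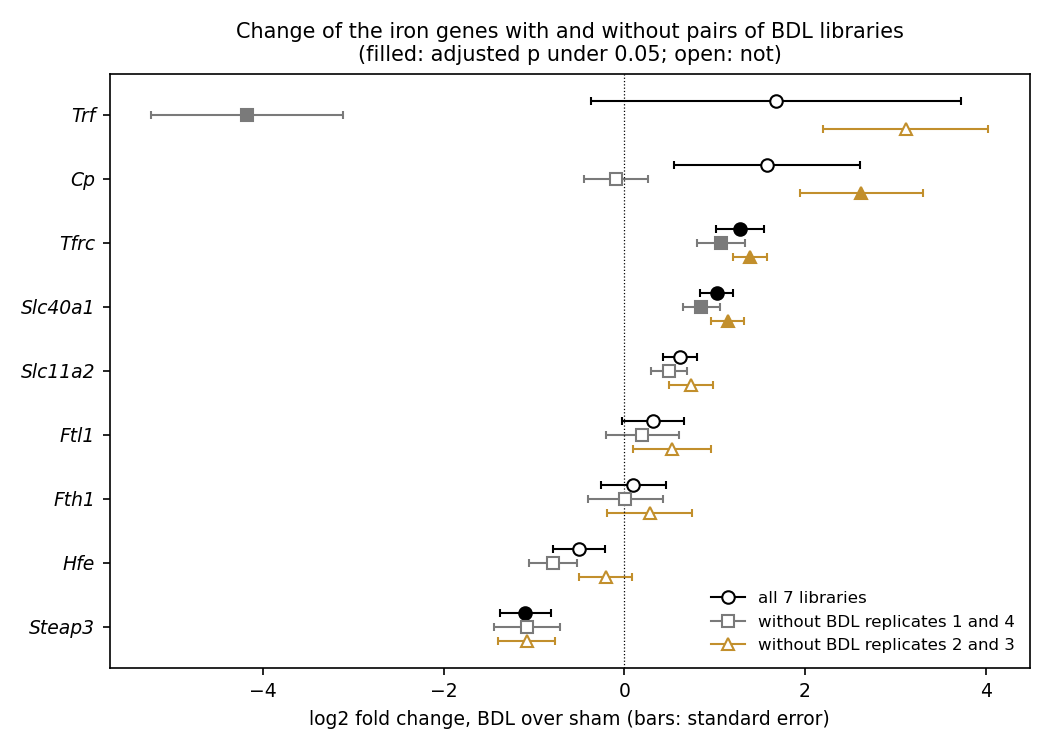
Log2 fold change of each of the 9 iron genes, BDL over sham, with its standard error, for all 7 libraries (circles), without BDL replicates 1 and 4 (squares) and without BDL replicates 2 and 3 (triangles), filled where the adjusted p is under 0.05. Tfrc and Slc40a1 are filled in all 3, Steap3 only with all libraries, and Trf lies at −4.17 or 3.11 depending on which pair is left out.

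No sex difference was detected in these genes. None of the 9 differed between female and male libraries (lowest adjusted p = 0.946, none with an unadjusted p under 0.05), beside 0.0198% of all tested genes. None had a different response to BDL in females and males either (lowest unadjusted p = 0.102), and 0.0% of all tested genes did in the edgeR fit, in which 1742 genes had an unadjusted p under 0.05. With 1 female sham library this comparison is weak. For 6 of the 9 genes no exon was shared with another tested gene. Ftl1 overlapped Gm10252 and Slc11a2 overlapped Gm5475 on the opposite strand, both at mean levels of 1.02 CPM or less in either group, and Cp overlapped Hps3 (15.6 CPM in BDL, 18.4 CPM in sham EHBDs). The libraries do not mark strand, so reads from these stretches cannot be told apart.

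The genes whose profile over the 7 libraries was most like that of Tfrc were Msx1, a homeobox factor, Lurap1l and Klf6, a zinc finger factor. Their root-mean-square differences from Tfrc, on centred log2 CPM among 13838 protein-coding genes of at least 1 CPM, were 0.109, 0.154 and 0.161. The nearest to Steap3 were Tnfsf12, a cytokine of the TNF family (0.114), Frg2f1 (0.14) and Cfap68 (0.148).

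Around the 9 genes, 83 others of iron and heme handling were listed by role, and 81 of them were tested. Of these, 21 rose, 8 fell and 52 did not pass, beside the 11.8% and 11.0% of all tested genes given above, and their median log2 fold change was 0.34. Without BDL replicates 1 and 4, 13 were higher and 8 lower, with a median of 0.15. Without BDL replicates 2 and 3, 18 were higher and 3 lower, with a median of 0.40.

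In the list of uptake and endosomal iron release, 5 of 15 rose and 2 fell. Steap1 and Steap2, relatives of Steap3 in the family of membrane reductases, rose, in the opposite direction to Steap3. Steap1 was at 16.6, 22.8, 23.1 and 36.8 CPM in BDL replicates 1 to 4, against 1.56, 1.34 and 0.56 CPM in sham replicates 1 to 3, a difference of 4.31 on the log2 scale (SE 0.38, adjusted p = 0.00075). Steap2 was at 48.3, 63.0, 57.7 and 85.6 CPM in BDL, against 27.2, 18.7 and 14.9 CPM in sham libraries, a difference of 1.59 on the log2 scale (SE 0.21, adjusted p = 0.0027). Neither had a value in common between the groups, and both calls held without BDL replicates 1 and 4.

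The zinc and iron importers of the ZIP family moved apart. Slc39a8, ZIP8, fell to 13.8, 10.1, 16.0 and 10.9 CPM in BDL, against 78.3, 51.0 and 47.4 CPM in sham libraries (log2 fold change −2.25, SE 0.21, adjusted p = 0.00083). Slc39a14, ZIP14, an importer of iron not bound to transferrin, was at 89.1, 92.8, 97.9 and 259 CPM in BDL, against 24.1, 25.6 and 33.2 CPM in sham libraries (2.10, SE 0.43, adjusted p = 0.0131), a call that ended without sham replicate 1 (1.63, 0.0615) or sham replicate 2 (2.08, 0.0526). Picalm, a clathrin adaptor of transferrin receptor uptake, rose by 1.07 on the log2 scale (SE 0.13, adjusted p = 0.0019).

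Lcn2, which binds iron through bacterial and mammalian siderophores, was at 522, 271, 987 and 1281 CPM in BDL, against 9.32, 32.6 and 31.5 CPM in sham libraries, a difference of 4.70 on the log2 scale (SE 0.80, adjusted p = 0.0069). Its receptor Slc22a17 fell by 1.39 on the log2 scale (SE 0.34, adjusted p = 0.0262), and not past the threshold without BDL replicate 1, BDL replicate 2, sham replicate 2 or sham replicate 3 (adjusted p = 0.0564 to 0.0921). Lcn2, Slc39a14 and Slc22a17 were named after their values were seen. Neutrophils also carry Lcn2: of 11 tested neutrophil markers, 5 rose, among them S100a8 and S100a9, and the sum over the 12 listed was 37.6 to 181 CPM in BDL against 51.5 to 80.1 CPM in sham libraries. Most of the sham sums, 61.1, 80.1 and 51.5 CPM, was Ltf, at 50.7, 49.8 and 42.5 CPM in sham replicates 1 to 3. Ltf was at 35.2, 4.18, 45.4 and 17.9 CPM in BDL replicates 1 to 4, so the overlap of the sums rests largely on this 1 marker. Within the BDL group Lcn2 had the same order as the neutrophil sum, which was 75.8, 37.6, 94.0 and 181 CPM in BDL replicates 1 to 4, and the part of neutrophils in its rise was not tested.

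In storage and chaperoning, 2 of 6 tested genes rose and none fell. Pcbp1, which delivers iron to ferritin, was at 207 to 252.5 CPM in BDL and 154.5 to 159 CPM in sham libraries (0.59, SE 0.16, adjusted p = 0.0369). Bola2, part of a cytosolic iron-sulfur chaperone, rose by 0.66 on the log2 scale (SE 0.16, adjusted p = 0.0262). Pcbp2 (0.39, adjusted p = 0.0647) and Glrx3 (0.36, adjusted p = 0.197) did not pass, and Ftmt, mitochondrial ferritin, had no count in any library. Both calls ended without BDL replicate 1 (adjusted p = 0.107 and 0.0897) and without BDL replicate 2 (0.12 and 0.0607), sham replicate 1 (0.0952 and 0.109) or sham replicate 3 (0.094 and 0.0776), given for Pcbp1 and Bola2, and that of Pcbp1 without sham replicate 2 as well (0.0914). The call of Pcbp1 also ended with upper quartile scaling (0.058) and with no filter on low counts (0.0695).

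Of the export and ferroxidase list, Rnf217, a ubiquitin ligase that removes ferroportin, rose and Heph, the membrane ferroxidase hephaestin, fell. Rnf217 was at 71.1, 66.6, 56.9 and 35.5 CPM in BDL, against 30.5, 25.8 and 21.4 CPM in sham libraries (1.15, SE 0.26, adjusted p = 0.019). Heph was at 12.8, 12.04, 12.1 and 13.0 CPM in BDL, against 21.7, 23.8 and 14.7 CPM in sham libraries (−0.69, SE 0.20, adjusted p = 0.047). The call of Rnf217 ended without BDL replicate 1, BDL replicate 2, sham replicate 2 or sham replicate 3 (adjusted p = 0.0536 to 0.0744), and that of Heph without any library except sham replicate 3 (0.0545 to 0.174). Hephl1 was detected by a single count, in BDL replicate 3.

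In the hepcidin axis, 1 of 11 genes rose and 1 fell. Erfe, erythroferrone, known as a suppressor of hepcidin from red cell precursors, was at 4.29, 3.68, 2.27 and 2.83 CPM in BDL, against 0.29, 0.20 and 0.43 CPM in sham libraries (3.46, SE 0.42, adjusted p = 0.002). Of the 8 erythroid markers given above 7 fell and none rose, and the cell source of the Erfe RNA was not tested. Bmp2, a ligand that induces hepcidin in the liver, was at 17.4, 15.7, 16.5 and 12.3 CPM in BDL, against 36.03, 32.4 and 21.9 CPM in sham libraries (−0.97, SE 0.22, adjusted p = 0.0203), and its call ended without BDL replicate 2 (0.0556), sham replicate 1 (0.126) or sham replicate 2 (0.0652). Hamp2 (−3.61, SE 1.32, adjusted p = 0.0896) and Neo1 (−0.67, adjusted p = 0.133) did not pass. Hamp2 was at 0.29, 1.34, 4.48 and 0.07 CPM in BDL, against 12.1, 5.21 and 27.3 CPM in sham libraries. Within each group this was the order of the summed acinar markers, at 1505, 68275, 82459 and 22.2 CPM in BDL and 123511, 56579 and 475723 CPM in sham libraries. The part of acinar RNA in Hamp2 was not tested.

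Hepcidin itself was highest in the libraries with the most Alb. Hamp was at 61.7 and 183 CPM in BDL replicates 1 and 4, at 0.037 and 0.25 CPM in BDL replicates 2 and 3, and at 0.35, 3.39 and 0.48 CPM in sham replicates 1 to 3. Tfr2, the liver transferrin receptor, was at 38.6 and 100.3 CPM in BDL replicates 1 and 4, at 0.13 and 0.33 CPM in BDL replicates 2 and 3, and at 0.29, 0.84 and 3.17 CPM in sham replicates 1 to 3. Hjv, hemojuvelin, was at 9.77 and 19.5 CPM in BDL replicates 1 and 4 and under 1 CPM in every other library. These 3 genes, with Hpx and the hemoglobin carrier Hp, were named after their values were seen, and none of them passed the test (adjusted p = 0.2065 to 0.3697).

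Of 6 iron regulatory proteins, their partners and hypoxia factors, 2 rose and none fell. Aco1, the iron-sulfur enzyme that becomes IRP1, was at 119, 127, 99.4 and 138 CPM in BDL, against 64.1, 76.8 and 79.98 CPM in sham libraries (0.74, SE 0.17, adjusted p = 0.0201). Ireb2, which encodes IRP2 and is regulated mainly through protein decay, had a log2 fold change of 0.43 (adjusted p = 0.126), with no overlap between the groups. Hif1a, a hypoxia factor, was at 315, 414, 336 and 366 CPM in BDL, against 128, 93.7 and 93.7 CPM in sham libraries (1.75, SE 0.21, adjusted p = 0.0018), and Epas1 did not pass (−0.46, adjusted p = 0.1015). The call of Aco1 ended without BDL replicate 1, BDL replicate 2 or any sham replicate (0.0545 to 0.0923).

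**Figure D4:**
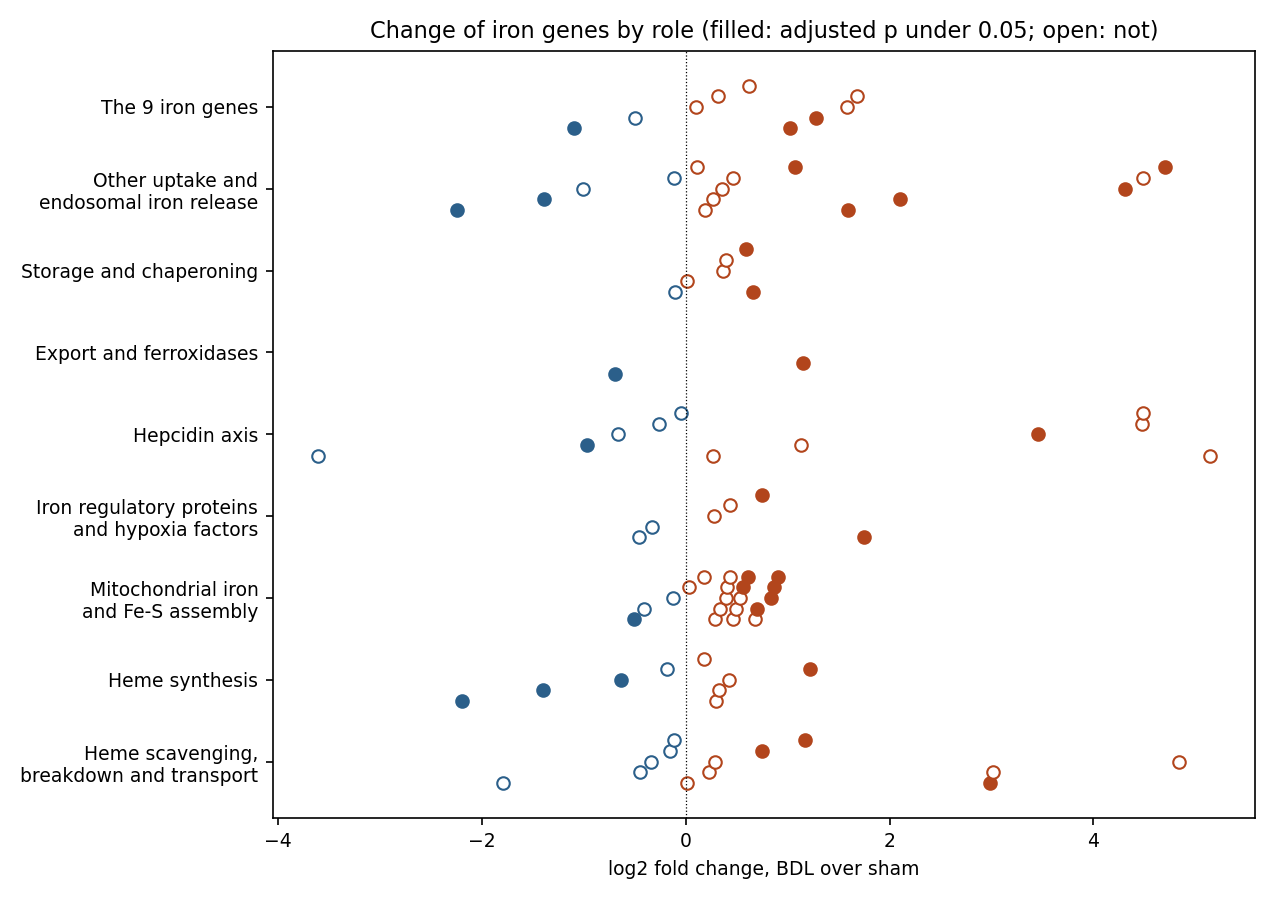
Log2 fold change, BDL over sham, of the 9 iron genes and of the tested genes of each other role, with 1 point per gene, red above and blue below 0, filled where the adjusted p is under 0.05. The vertical spread within a row only separates points, and the open points above 4 are Tfr2, Hamp, Hjv and Hpx, which were high in BDL replicates 1 and 4.

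Of 20 genes of mitochondrial iron and iron-sulfur assembly, 6 rose and 1 fell. Those that rose included Abcb8, a transporter of the inner membrane (0.69, SE 0.13, adjusted p = 0.0088), Fdx1, a ferredoxin (0.61, SE 0.14, adjusted p = 0.0229), and Nfu1, a cluster carrier (0.56, SE 0.14, adjusted p = 0.028), given as log2 fold changes. Without BDL replicates 1 and 4, 1 of the 20 rose and none fell, and of the genes just named only Abcb8 was still called (adjusted p = 0.032). Its call ended without BDL replicates 2 and 3 (0.62, adjusted p = 0.075). The calls of Fdx1 and Nfu1 ended without BDL replicate 1, BDL replicate 2, sham replicate 1 or sham replicate 3 (adjusted p = 0.059 to 0.117), that of Fdx1 also without the sex term (0.0768) and that of Nfu1 also with upper quartile scaling (0.0539).

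In heme synthesis, 3 of 9 genes fell. Uros, which closes the tetrapyrrole ring, was at 5.61, 5.54, 6.20 and 13.5 CPM in BDL, against 17.7, 19.5 and 17.8 CPM in sham libraries (−1.40, SE 0.33, adjusted p = 0.0221). Ppox, of the step before iron insertion, fell (−0.64, SE 0.17, adjusted p = 0.034), as did the erythroid synthase Alas2 (−2.20, SE 0.56, adjusted p = 0.0292), which stood at 4.64, 3.30, 3.69 and 0.97 CPM in BDL, against 13.8, 23.6 and 6.97 CPM in sham libraries and is itself among the 8 erythroid markers.

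Alas2 also carries an IRE of the form searched, in its 5′ UTR, in 19 of 20 coding transcripts.
Alas2, 5′ UTR, chrX:149330455-149330481, plus strand: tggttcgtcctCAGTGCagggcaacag
The calls of Uros, Alas2 and Ppox ended without BDL replicate 1 (adjusted p = 0.0864, 0.0656 and 0.114) and BDL replicate 2 (0.0792, 0.0786 and 0.0945). They also ended without sham replicate 1 for Alas2 and Ppox (0.154 and 0.121), without sham replicate 2 for Uros and Alas2 (0.0639 and 0.112), without sham replicate 3 for Uros and Ppox (0.0669 and 0.0969), and without BDL replicate 3 or 4 for Ppox (0.0585 and 0.0537).

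Of 13 genes of heme scavenging, breakdown and transport, 3 rose and none fell. Hmox1, heme oxygenase, which frees iron from heme, was at 59.0, 72.3, 188 and 127 CPM in BDL, against 7.34, 17.9 and 10.7 CPM in sham libraries, a difference of 2.99 on the log2 scale (SE 0.53, adjusted p = 0.008). BDL replicate 3, with Alb near 0, had the highest value. Blvra, which reduces the biliverdin that heme oxygenase makes, was at 35.98, 35.7, 38.0 and 38.6 CPM in BDL, against 13.3, 23.0 and 14.3 CPM in sham libraries (1.17, SE 0.22, adjusted p = 0.0103, and 0.0538 without sham replicate 1). Flvcr1, a transporter first described as a heme exporter, rose by 0.75 on the log2 scale (SE 0.20, adjusted p = 0.0336), a call that ended without BDL replicate 1, BDL replicate 2, sham replicate 2 or sham replicate 3 (0.0782 to 0.107), and its relative Flvcr2 did not pass (−1.79, SE 0.64, adjusted p = 0.0866). Among the genes named here beside the 9, Steap1, Steap2, Slc39a8, Picalm, Lcn2, Erfe, Hif1a and Hmox1 passed in the same direction under all 18 alternatives. Calls that ended without BDL replicates 1 and 4 included Slc22a17 (adjusted p = 0.0829), Pcbp1 (0.112), Bola2 (0.109), Heph (0.0978), Ppox (0.135) and Flvcr1 (0.0692). Those of Pcbp1, Bola2, Rnf217, Heph, Bmp2, Aco1, Abcb8, Fdx1, Nfu1, Uros, Alas2, Ppox and Flvcr1 ended without BDL replicates 2 and 3 (0.0524 to 0.161).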

How the data were processed

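The authors sequenced SMART-Seq mRNA libraries, which do not mark strand, from whole EHBD RNA. They quantified reads with Salmon on GENCODE transcripts of GRCm39 (the Salmon version is not given in the sources used here) and summed them to genes with tximeta. What the authors deposited are estimated counts, whole numbers without normalization, 1 value per gene and library, so reads shared by near-identical genes were divided by the authors' model. Of 56065 genes, 55563 were named with GENCODE vM39, and unnamed genes held 0.0335% of counts. Within each group, every pair of libraries differed beyond sampling noise (chi-square over its degrees of freedom at least 202.3).

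Genes with at least 10 counts in total were tested in R 4.3.3 with edgeR 4.0.16 (TMM scaling, quasi-likelihood F test, terms for sex and surgery, 4 residual degrees of freedom, Benjamini-Hochberg adjustment, threshold 0.05). The size of each log2 fold change divided by the root of its F value gave the standard error. The 18 alternatives covered scaling, filters, DESeq2 1.42.0, limma-voom 3.58.1, the sex term, marker genes left out, a hepatocyte covariate, and libraries left out singly or in pairs. The script was tested on simulated data. For similar profiles, 2 prior counts were added before taking log2 CPM.

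The members and lists were chosen with earlier results of these data known. All members were named. Of each other list, the 4 tested genes with the smallest p and any gene at 0 throughout a group were named, besides those said to be chosen after their values were seen. Some genes that this rule takes are not reported here.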

Additional observations from a re-analysis of the deposited data

Results flagged for a closer look

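Of 44 genes examined in the BDL group, 4 had a library far from the other 3 by Dixon's 95% criterion, where chance gives about 1 in 20. Glrx3, a cytosolic iron-sulfur carrier, was at 119.7 CPM in BDL replicate 4, against at most 97.2 CPM in the other BDL libraries. Uros was at 13.5 CPM in BDL replicate 4, against at most 6.20 CPM in the other BDL libraries, and Slc39a14 at 259 CPM, against at most 97.9 CPM. BDL replicate 4 was also the library with the highest Alb level (4451 CPM), and the part of liver RNA in these values was not tested. Hephl1 was at 0.0165 CPM in BDL replicate 3, a single count, and at 0 in the other BDL libraries.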

How the results depend on the processing

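Of the 9 genes, the count that rose was 2 and ran from 1 to 3 with single libraries left out and to 4 with the hepatocyte covariate. The count that fell was 1, ran from 0 to 1 with single libraries left out, and was 0 without BDL replicates 2 and 3. Of the other iron genes, 21 rose, 11 to 23 with single libraries left out and 13 without BDL replicates 1 and 4, and 8 fell, 1 to 6 with single libraries left out and 3 without BDL replicates 2 and 3. Over all genes, 2976 were higher and 2782 lower, against 1678 and 1431 without BDL replicate 1, 1772 and 1588 without BDL replicate 2, 2094 and 1642 without sham replicate 1, 2181 and 1850 without sham replicate 2, and 1743 and 1846 without sham replicate 3. DESeq2 gave 3858 and 4188, and 2049 and 1692 were left without BDL replicates 2 and 3. The upper quartile scaling gave 2485 and 3320 and shifted the median log2 fold change of all genes by −0.122. The sign of the log2 fold change turned for Trf with limma-voom (−0.69), the hepatocyte covariate (−1.12) and without BDL replicates 1 and 4 (−4.17), running from −1.05 to 2.77 with single libraries left out. It turned for Fth1 with the upper quartile (−0.0223; −0.29 to 0.288 with single libraries left out), for Cp without BDL replicates 1 and 4 (−0.0921) and for Ftl1 with single libraries left out (−0.0931 to 0.523). The cause was not tested. No paired analysis was possible because replicate numbers follow the order of deposit. Leaving out sham replicate 1 leaves no female sham library. With 4 residual degrees of freedom, a change of the size of the standard errors of Trf (2.05) or Cp (1.03) cannot be detected.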
